A study of Mus musculus with 28 samples.

Results

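The Fc gamma receptors, which bind the constant part of immunoglobulin G, and the signalling chain that most of them share were followed through mouse bone marrow-derived macrophages left untreated or given interleukin-4, interferon-γ, lipopolysaccharide (LPS) or a cytokine plus LPS. The set held 5 genes of the 27670 gene names on the array: the activating receptors Fcgr1, Fcgr3 and Fcgr4, the inhibitory receptor Fcgr2b, and Fcer1g, which encodes the common γ chain. They were chosen by name from the gene column of the scanner files, with older names allowed. Fcgr4 stands on the array as Fcgr3a and was recognised by its RefSeq accession. Where a gene had several probes, the probe with the highest mean signal was used. All 5 genes were among the 22448 tested, and each was well above background on 28 of 28 arrays.

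The 28 single-colour arrays came from C57BL6/J bone marrow cells grown in human rCSF1, the macrophage growth factor, at 200 ng/ml, which the untreated cells received too. The groups were IL-4 plus LPS (4 arrays), IL-4 (4), IFNγ plus LPS (3), IFNγ (3), LPS (7) and untreated (7). From day 7 the primed cells received IL-4 at 10 ng/ml or IFNγ at 100 U/ml for 18 h, and LPS was present at 10 ng/ml for the last 4 h, so cytokine and LPS differ in length of exposure. The labels give mice of 8 to 12 weeks, 2 males and 1 female, whose marrow was pooled, so an array does not stand for 1 animal; nothing says that arrays of a group came from separate marrow preparations, and p-values measure the spread between these arrays.

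An antibody-coated particle or an immune complex that binds several activating Fc gamma receptors brings their signalling motifs together. Src family kinases such as Lyn phosphorylate the motifs on the γ chain, and the kinase Syk docks there and starts phagocytosis, the oxidative burst and cytokine release. Fcgr2b carries an inhibitory motif instead, recruits the phosphatase encoded by Inpp5d and dampens these signals, so that a macrophage's response to immune complexes depends on both kinds of receptor. In the mouse, Fcgr1 is the high-affinity receptor, Fcgr4 binds certain IgG subclasses with intermediate affinity, and Fcgr3 and Fcgr2b are low-affinity receptors.

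The array-level checks are given first because they touch every value below. Brightness varied between arrays, with a 75th percentile of 582.4 intensity units on the dimmest and 2113 on the brightest, and 60.3% to 78.7% of the spots of an array were well above background. Between 0 and 11 spots of an array were saturated, none of them a spot of the 5 genes. Target genes separated the labelled groups: Retnla, an IL-4 target, lay between 7.28 and 8.31 on the IL-4 plus LPS arrays, and at or below -6.60 on every untreated array (log2 units relative to the 75th percentile of the array, the scale of all levels here). Gbp2b, an IFNγ target, lay between 3.35 and 4.01 with IFNγ and at or below -4.90 untreated, and Il6, an LPS target, between 3.08 and 5.95 with LPS and at or below -7.22 untreated. All 8 macrophage markers looked up, among them Csf1r, Adgre1 and Cd68, were well above background on every array. The authors also deposited a value table, but only 2 of its 28 columns followed the scanner file of the same sample, 13 followed another letter of the same group and 13 a file of another group, so the scanner files were used, with the groups of the labels. The 28 columns followed 28 different scanner files (lowest correlation 0.9999), so the labels conflict rather than the values. Replicate letters are in doubt in all groups, most of all for the untreated and LPS arrays, where they pair no samples. Same-lettered arrays of the primed groups resembled each other but also shared a scan day. The arrays lay on 10 slides scanned on 5 days.

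Fcgr1 and Fcgr4 moved together over the 28 arrays (Pearson r = 0.927, a description across arrays of 6 groups), while Fcgr2b followed neither (r = 0.04 with Fcgr1 and 0.11 with Fcgr4). Their promoter windows are therefore shown here, from RefSeq on GRCm38.p6, each running from 250 bases before to 50 bases after the annotated start in the direction of the gene. Capitals mark matches, on either strand, to 4 motifs: TTC and GAA with any 4 bases between them (STAT6-type), GAAA repeated after any 2 bases (ISRE-type, named after the interferon-stimulated response element), GAGGAA (PU.1-type) and the NF-kappaB consensus.
Fcgr1, chr3:96293920-96294219, minus strand: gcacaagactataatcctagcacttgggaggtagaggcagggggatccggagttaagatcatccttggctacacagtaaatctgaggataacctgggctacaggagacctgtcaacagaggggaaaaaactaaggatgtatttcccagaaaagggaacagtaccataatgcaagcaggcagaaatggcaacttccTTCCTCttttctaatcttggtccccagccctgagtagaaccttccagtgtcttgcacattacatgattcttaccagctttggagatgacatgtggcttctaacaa
Fcgr4, chr1:171018676-171018975, plus strand: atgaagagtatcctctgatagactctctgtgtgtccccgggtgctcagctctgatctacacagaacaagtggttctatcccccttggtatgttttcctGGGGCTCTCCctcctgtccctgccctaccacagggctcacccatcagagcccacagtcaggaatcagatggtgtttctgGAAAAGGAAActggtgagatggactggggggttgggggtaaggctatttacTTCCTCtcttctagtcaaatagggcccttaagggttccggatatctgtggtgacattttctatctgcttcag
Fcgr2b, chr1:170976022-170976321, minus strand: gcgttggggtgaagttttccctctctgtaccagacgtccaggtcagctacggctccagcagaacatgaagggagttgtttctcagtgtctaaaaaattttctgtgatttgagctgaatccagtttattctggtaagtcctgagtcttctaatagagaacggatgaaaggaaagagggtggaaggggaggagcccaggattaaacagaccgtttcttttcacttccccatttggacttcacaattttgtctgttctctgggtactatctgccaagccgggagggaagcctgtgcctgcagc

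The Fcgr1 window held a PU.1-type match at positions -55 to -50 from the start. The Fcgr4 window held an ISRE-type match at -73 to -64, a PU.1-type match at -22 to -17 and an NF-kappaB match at -152 to -143. In the Fcgr2b window none of the 4 motifs matched, which says only that these letters are not in this window. Both Fcgr3 windows of the table held a PU.1-type and an NF-kappaB match, and the Fcer1g window held none. No window of the 5 genes held the STAT6-type letters. Of all 32851 promoter windows of this length, 6.95% held the STAT6-type motif, 3.44% the ISRE-type, 28.3% the PU.1-type and 4.51% the NF-kappaB consensus. A match is a description of the sequence, not a measured binding site.

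**Figure D1:**
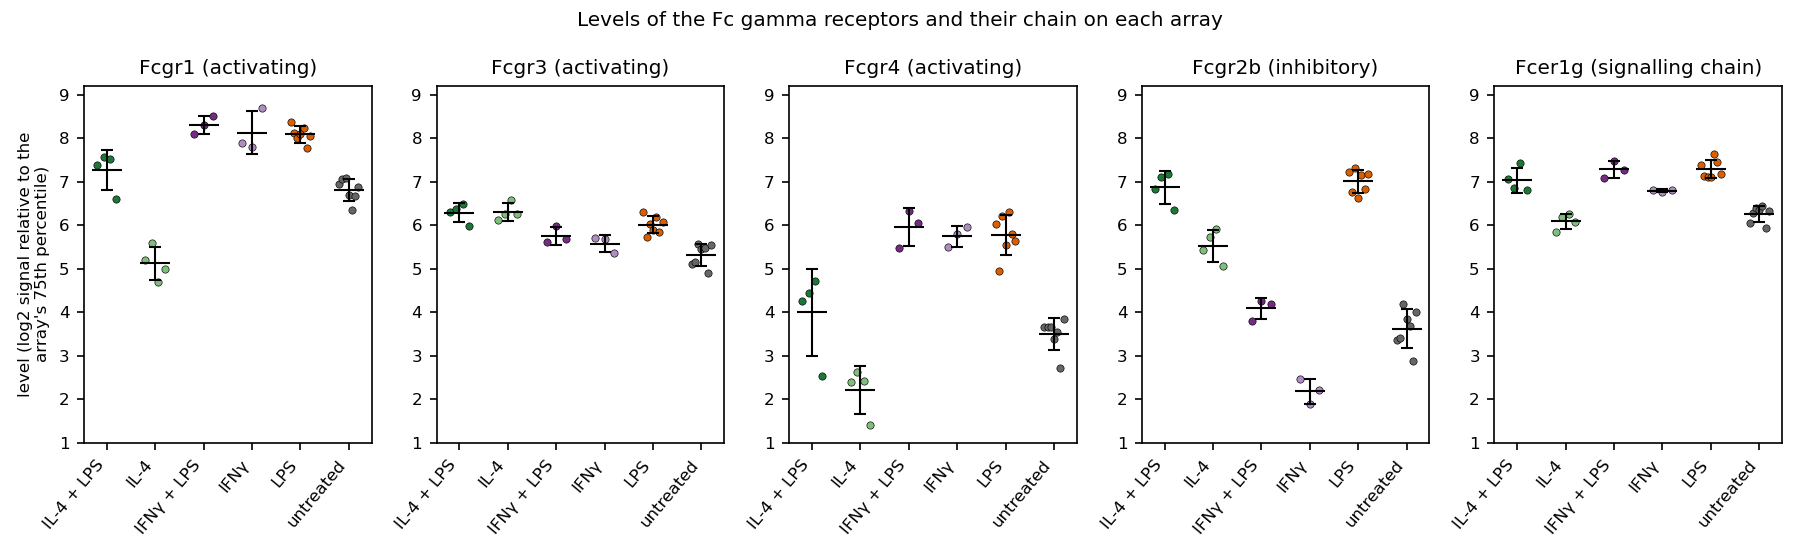
Level of each gene on each of the 28 arrays (vertical axis, log2 signal relative to the array's 75th percentile) by group (horizontal axis). Points are arrays, bars are group means with SD, and levels compare only within a gene; Fcgr2b was lowest with IFNγ and highest with LPS and IL-4 plus LPS, which overlapped, while Fcgr1 and Fcgr4 were lowest with IL-4.

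LPS against untreated asked how 4 h of a bacterial stimulus change the receptors of unprimed macrophages. All 5 genes rose, where 42.2% of the 22448 genes tested passed at an adjusted p under 0.05, 20.8% as higher and 21.5% as lower. The inhibitory receptor rose furthest: Fcgr2b was 10.5-fold higher, against 4.86-fold for Fcgr4, 2.42-fold for Fcgr1, 2.05-fold for the γ chain and 1.62-fold for Fcgr3. The comparisons of LPS, IL-4 and IFNγ with untreated share the same 7 untreated arrays. Each fold is a change of a gene's own signal, and in bulk RNA fewer cells of a type and less RNA per cell cannot be told apart.

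Fcgr2b had a lowest, median and highest level of 6.61, 7.15 and 7.31 on the 7 LPS arrays, against 2.88, 3.67 and 4.20 on the 7 untreated arrays. The lowest LPS array thus lay 2.42 log2 units above the highest untreated array. The change was 3.39 ± 0.19 (log2, SE; limma, adjusted p = 2.43e-13). Fcgr4 stood at 4.94, 5.80 and 6.30 with LPS and at 2.72, 3.66 and 3.84 untreated, and its groups did not overlap either (change 2.28 ± 0.28, adjusted p = 2.5e-07). Fcgr1 stood at 7.76, 8.10 and 8.36 with LPS and at 6.35, 6.88 and 7.08 untreated (change 1.28 ± 0.18, adjusted p = 1.19e-06). For the γ chain gene Fcer1g the levels were 7.10, 7.18 and 7.63 with LPS and 5.93, 6.33 and 6.44 untreated (change 1.03 ± 0.12, adjusted p = 1.19e-07). Fcgr3 showed the smallest change and the narrowest gap, with 5.73, 6.04 and 6.31 on LPS arrays and 4.90, 5.45 and 5.56 on untreated arrays (change 0.70 ± 0.13, adjusted p = 8.45e-05).

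Within each of the 5 scan days all 5 genes were higher with LPS, Fcgr2b by 3.14 to 3.89 and Fcgr3 by 0.37 to 0.83, and with scan day as a block the changes were 3.39 for Fcgr2b, 2.28 for Fcgr4, 1.28 for Fcgr1, 1.03 for Fcer1g and 0.70 for Fcgr3. Quantile normalization, which by construction gives every array the same distribution, left Fcgr2b (2.68) and Fcgr4 (1.59) called and ended the calls of Fcgr1 (0.33, adjusted p = 0.0938), Fcer1g (0.15, adjusted p = 0.414) and Fcgr3, whose sign turned (-0.15, adjusted p = 0.447). The upper part of the distribution differed between these groups before that step: the 99th percentile of an array lay 6.27 to 6.56 above its 75th on LPS arrays and 5.43 to 5.70 above it on untreated arrays; the part of this difference in the rises was not tested.

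**Figure D2:**
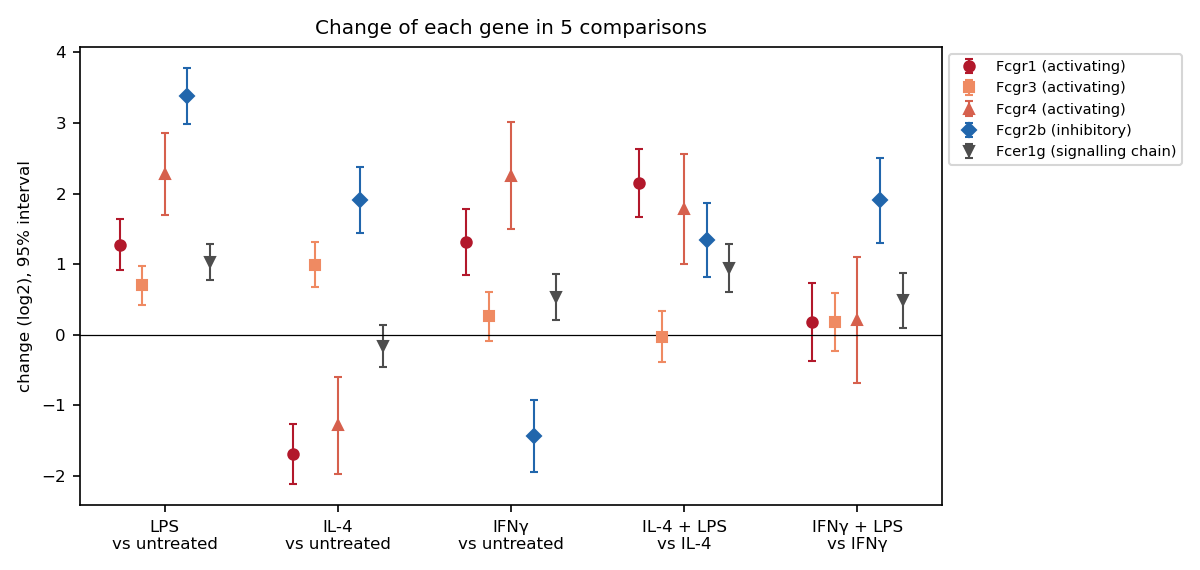
Change of each gene (vertical axis, log2, with 95% interval of the limma fit) in 5 comparisons (horizontal axis), with the activating receptors in red tones, Fcgr2b in blue and Fcer1g in grey. Fcgr2b rose by 1.91 with IL-4 and fell by 1.44 with IFNγ, while Fcgr4 fell by 1.28 with IL-4 and rose by 2.25 with IFNγ.

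IL-4 against untreated asked what 18 h of a type 2 cytokine do to the same receptors. Fcgr2b and Fcgr3 rose, Fcgr1 and Fcgr4 fell, and Fcer1g did not pass the test, so 4 of 5 genes were called, where 11.2% of all genes were, 5.72% as higher and 5.43% as lower. The high-affinity receptor Fcgr1 had 0.309 times the untreated signal and Fcgr4 0.410 times, while Fcgr2b was 3.75-fold and Fcgr3 1.99-fold higher.

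The 4 IL-4 arrays gave Fcgr1 levels of 5.19, 5.58, 4.71 and 5.00, all below the lowest untreated array at 6.35 (change -1.69 ± 0.21, adjusted p = 1.52e-06). Fcgr4 read 2.39, 2.63, 2.42 and 1.41 with IL-4, and the highest of these was 0.10 below the lowest untreated array at 2.72 (change -1.28 ± 0.33, adjusted p = 0.0103). Without the lowest IL-4 array, G, the change was -1.02 (adjusted p = 0.0759). Fcgr2b read 5.43, 5.73, 5.90 and 5.07 with IL-4, all above the highest untreated array at 4.20 (change 1.91 ± 0.23, adjusted p = 1.01e-06). Fcgr3 read 6.11, 6.26, 6.59 and 6.26 with IL-4, also all above the untreated arrays, which ended at 5.56 (change 0.99 ± 0.15, adjusted p = 4.89e-05). Fcer1g read 5.84, 6.18, 6.25 and 6.08 with IL-4, inside the untreated range of 5.93 to 6.44 but for 1 array, and its change was -0.17 with a 95% interval of -0.46 to 0.13 (adjusted p = 0.582). On each of the 3 scan days that held both groups Fcgr1 and Fcgr4 were lower and Fcgr2b and Fcgr3 higher with IL-4; with scan day as a block the changes were -1.83, -1.38, 1.95 and 1.06.

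IFNγ against untreated asked the same of the type 1 cytokine. Fcgr4, Fcgr1 and the γ chain rose and Fcgr2b fell, 4 of 5 genes where 25.6% of all genes were called, 12.6% as higher and 13% as lower. Fcgr4 was 4.77-fold and Fcgr1 2.49-fold higher, Fcer1g was 1.45-fold higher, and Fcgr2b had 0.369 times the untreated signal.

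Fcgr4 read 5.49, 5.79 and 5.97 on the IFNγ arrays, the lowest of them 1.65 log2 units above the highest untreated array at 3.84 (change 2.25 ± 0.37, adjusted p = 4.3e-05). Fcgr1 read 7.89, 7.80 and 8.69, also above all untreated arrays, which ended at 7.08 (change 1.31 ± 0.23, adjusted p = 8.78e-05). Fcgr2b read 2.46, 1.89 and 2.21, below the lowest untreated array at 2.88 (change -1.44 ± 0.25, adjusted p = 9.04e-05). The γ chain gene read 6.80, 6.76 and 6.81 on the IFNγ arrays, against at most 6.44 untreated (change 0.54 ± 0.16, adjusted p = 0.0129). Without IFNγ array E its adjusted p was 0.0505, and with quantile normalization its sign turned (-0.09, adjusted p = 0.777). Fcgr3 read 5.71, 5.67 and 5.35 with IFNγ, overlapping the untreated arrays (change 0.26, 95% interval -0.09 to 0.61, adjusted p = 0.264). Its dimmer probe was called lower (limma, -0.80 ± 0.21, adjusted p = 0.00472).

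The median of all genes tested was itself -0.29 in this comparison, and 0.16 with each array scaled by its median instead, so changes are also given relative to that median: 2.54 for Fcgr4, 1.60 for Fcgr1, 0.83 for Fcer1g, 0.55 for Fcgr3 and -1.15 for Fcgr2b. Only 2 scan days held both groups; on both, Fcgr4 (by 2.12 and 3.25) and Fcgr1 (by 0.95 and 2.02) were higher and Fcgr2b was lower (by -1.84 and -0.67), and with scan day as a block the changes were 2.62, 1.36 and -1.40.

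LPS was then set against priming alone. In IL-4 primed cells LPS raised Fcgr1, Fcgr4, Fcgr2b and Fcer1g, 4 of 5 genes where 31.1% of all genes were called (14.9% higher, 16.2% lower) and the median of all genes was 0.14. Fcgr1 read 7.38, 7.57, 7.53 and 6.60 on the IL-4 plus LPS arrays, against 5.19, 5.58, 4.71 and 5.00 on the IL-4 arrays, without overlap (change 2.15 ± 0.23, adjusted p = 4.9e-08). Fcgr4 read 4.26, 4.45, 4.72 and 2.53, against 2.39, 2.63, 2.42 and 1.41, so the array G of IL-4 plus LPS fell within the range of IL-4 alone (change 1.78 ± 0.38, adjusted p = 0.000498). Fcgr2b read 6.83, 7.12, 7.19 and 6.35, all above the IL-4 arrays, which ended at 5.90 (change 1.34 ± 0.25, adjusted p = 0.000165). With quantile normalization the Fcgr2b change was 0.69 (adjusted p = 0.055). Fcer1g read 7.06, 6.85, 7.43 and 6.80 with IL-4 plus LPS, above the IL-4 maximum of 6.25 (change 0.95 ± 0.16, adjusted p = 4.61e-05), but quantile normalization gave 0.33 (adjusted p = 0.192). Fcgr3 did not pass the test, at 6.29, 6.37, 6.49 and 5.98 with IL-4 plus LPS, overlapping the IL-4 arrays at 6.11 to 6.59 (change -0.02, 95% interval -0.38 to 0.33, adjusted p = 0.949). Quantile normalization called it lower (-0.71, adjusted p = 0.00838), whereas the dimmer of its 2 probes was called higher (0.66, adjusted p = 0.0176).

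In IFNγ primed cells LPS raised only Fcgr2b past the threshold, 1 of 5 genes where 11.8% of all genes were called (5.62% higher, 6.21% lower) and the median of all genes was 0.14. Fcgr2b read 3.81, 4.26 and 4.20 on the IFNγ plus LPS arrays, against 2.46, 1.89 and 2.21 on the IFNγ arrays, a 3.74-fold difference without overlap (change 1.90 ± 0.29, adjusted p = 8.88e-05). Fcgr4 read 5.48, 6.33 and 6.06 with IFNγ plus LPS, around its IFNγ levels of 5.49, 5.79 and 5.97 (change 0.21, 95% interval -0.69 to 1.10, adjusted p = 0.853). Fcgr1 read 8.10, 8.31 and 8.51 and overlapped IFNγ alone (change 0.18, 95% interval -0.37 to 0.73, adjusted p = 0.792). Fcer1g read 7.10, 7.49 and 7.27, all above the IFNγ arrays, yet did not pass the test over all genes (change 0.49 ± 0.19, adjusted p = 0.0983). With slide or scan day as a block it did, at adjusted p = 0.0074 and 0.0152, but not with the experiment letter as a block (adjusted p = 0.147) or when only these groups were fitted (adjusted p = 0.358), and quantile normalization gave a change of 0.04 (adjusted p = 0.965).

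Whether priming altered the LPS change was tested as an interaction, the LPS change in primed cells minus the LPS change in unprimed cells. After IFNγ it was called for 3 of 5 genes, where 8.26% of all genes were (3.02% higher, 5.23% lower): Fcgr4 at -2.07 ± 0.52 (adjusted p = 0.0111), Fcgr2b at -1.48 ± 0.35 (adjusted p = 0.00746) and Fcgr1 at -1.09 ± 0.32 (adjusted p = 0.0324). In each case LPS added less after IFNγ than without it. The Fcgr1 call was lost without any of 4 arrays, among them IFNγ array G (-0.81, adjusted p = 0.148), and the Fcgr4 call without IFNγ plus LPS array E (-1.84, adjusted p = 0.0543). After IL-4 the interaction was called on the brightest probes for Fcgr2b alone, at -2.05 ± 0.32 (adjusted p = 0.000487). This was 1 of 5 genes where 1.59% of all genes were called, 0.904% as higher and 0.682% as lower. The dimmer Fcgr3 probe was called lower in both interactions (limma, -1.36 after IL-4, adjusted p = 0.00489, and -1.58 after IFNγ, adjusted p = 0.00079). Fcgr1 leaned the other way after IL-4, at 0.88 ± 0.29 (adjusted p = 0.193), and passed without IL-4 plus LPS array G (1.10, adjusted p = 0.0383). With quantile normalization the IL-4 interaction of Fcgr1 was 1.25 (adjusted p = 0.00703), and the IFNγ interactions of Fcgr1 and Fcgr2b were -0.64 and -0.999, no longer called.

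IL-4 plus LPS against LPS showed what was left of the IL-4 effect once LPS was present. Fcgr4 and Fcgr1 were lower, 2 of 5 genes where 8.85% of all genes were called (4.33% higher, 4.52% lower), and Fcgr2b and Fcgr3 did not differ past the threshold. Fcgr4 read at most 4.72 with IL-4 plus LPS, below the lowest LPS array at 4.94 (0.291 times the LPS signal; change -1.78 ± 0.33, adjusted p = 0.000724). Fcgr1 read at most 7.57, below the LPS minimum of 7.76 (change -0.82 ± 0.21, adjusted p = 0.0106), and without IL-4 plus LPS array G the change was -0.59 (adjusted p = 0.0818). For Fcgr2b the change was -0.14 with a 95% interval of -0.61 to 0.33, for Fcgr3 0.27 (-0.05 to 0.59) and for Fcer1g -0.25 (-0.55 to 0.05). Within the 3 shared scan days Fcgr4 was lower by -2.40 to -1.51 and Fcgr1 by -1.52 to -0.57.

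On the brightest probes, IFNγ plus LPS against LPS differed for 1 of the 5 genes. Of all genes 22.6% were called (10.6% higher, 12% lower), and the median of all genes was -0.23. Fcgr2b had 0.132 times the LPS signal: the 3 IFNγ plus LPS arrays lay at 3.81, 4.26 and 4.20, against a lowest LPS array of 6.61 (change -2.92 ± 0.25, adjusted p = 8.3e-09). On the 2 shared scan days the difference was -3.16 and -2.58, and it was -2.88 with scan day as a block. Fcgr1, Fcgr4 and Fcer1g differed by 0.22 (95% interval -0.25 to 0.69), 0.18 (-0.57 to 0.94) and -0.0041 (-0.33 to 0.32), and Fcgr3 by -0.25 (-0.60 to 0.09). The dimmer Fcgr3 probe, however, was called lower (limma, -2.38 ± 0.21, adjusted p = 1.12e-08), and so was the mean over both Fcgr3 probes (-1.32, adjusted p = 1.95e-06).

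Directly against each other, IL-4 and IFNγ set all 5 genes apart, where 27.6% of all genes were called (14.7% higher, 13% lower) and the median of all genes was 0.30. Fcgr4 was lower with IL-4 than with IFNγ (change -3.54 ± 0.41, adjusted p = 2.14e-07), as were Fcgr1 (-3.01 ± 0.25, adjusted p = 9.4e-10) and Fcer1g (-0.71 ± 0.18, adjusted p = 0.00327). Fcgr2b (3.35 ± 0.27, adjusted p = 7.34e-10) and Fcgr3 (0.73 ± 0.19, adjusted p = 0.00422) were higher with IL-4. No IL-4 array overlapped an IFNγ array for any of the 5 genes. The share of all genes without such overlap was not worked out, so this does not set the 5 genes apart from others. Fcgr3 lost its call with normexp background correction (0.58) and with median scaling (0.37, adjusted p = 0.38). Fcer1g lost its call with quantile normalization (-0.37, adjusted p = 0.18) and was not called on its second probe. With LPS present, 4 of 5 genes still differed between IL-4 plus LPS and IFNγ plus LPS, where 25.4% of all genes were called (13.8% higher, 11.6% lower): Fcgr2b by 2.78 ± 0.27 (adjusted p = 6.16e-08), Fcgr4 by -1.96 ± 0.41 (adjusted p = 0.000707), Fcgr1 by -1.04 ± 0.25 (adjusted p = 0.00297) and Fcgr3 by 0.53 ± 0.19 (adjusted p = 0.0406). The Fcgr3 call was lost in 5 of the 7 fits that each left out 1 array of these groups, while Fcer1g had not passed (-0.25, adjusted p = 0.312). Only 1 scan day held both groups of each pair, and the differences on it had the signs given here for all 5 genes.

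Since the activating and inhibitory receptors share ligands, each activating receptor was also set against Fcgr2b on the same array, relative to the mean of the untreated arrays. With IL-4 the difference Fcgr4 minus Fcgr2b averaged -3.19 ± 0.30 (log2; SD, n = 4) and with IFNγ 3.69 ± 0.47 (SD, n = 3), where untreated arrays spread by 0.32 around 0 (SD, n = 7). LPS alone gave -1.11 ± 0.34 (SD, n = 7), IL-4 plus LPS -2.75 ± 0.63 (SD, n = 4) and IFNγ plus LPS 2.00 ± 0.20 (SD, n = 3). For Fcgr1 minus Fcgr2b the means were -3.60 with IL-4, 2.75 with IFNγ, -2.11 with LPS, -2.79 with IL-4 plus LPS and 1.03 with IFNγ plus LPS. All IL-4, IL-4 plus LPS and LPS arrays thus stood on the inhibitory side of the untreated mean for both receptors, and all IFNγ and IFNγ plus LPS arrays on the activating side. On its brighter probe Fcgr3 minus Fcgr2b gave -0.91 with IL-4, 1.70 with IFNγ, -2.69 with LPS and -2.28 with IL-4 plus LPS. With IFNγ plus LPS it gave -0.02, with arrays on both sides of 0. The Fcgr3 values hold for that probe only. The dimmer Fcgr3 probe changed by -0.80 with IFNγ and by -2.38 in IFNγ plus LPS against LPS, and was not set against Fcgr2b. The differences from Fcgr2b rest on the changes tested above and carry no test of their own, and a signal ratio between probes is not a ratio of receptor molecules.

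**Figure D3:**
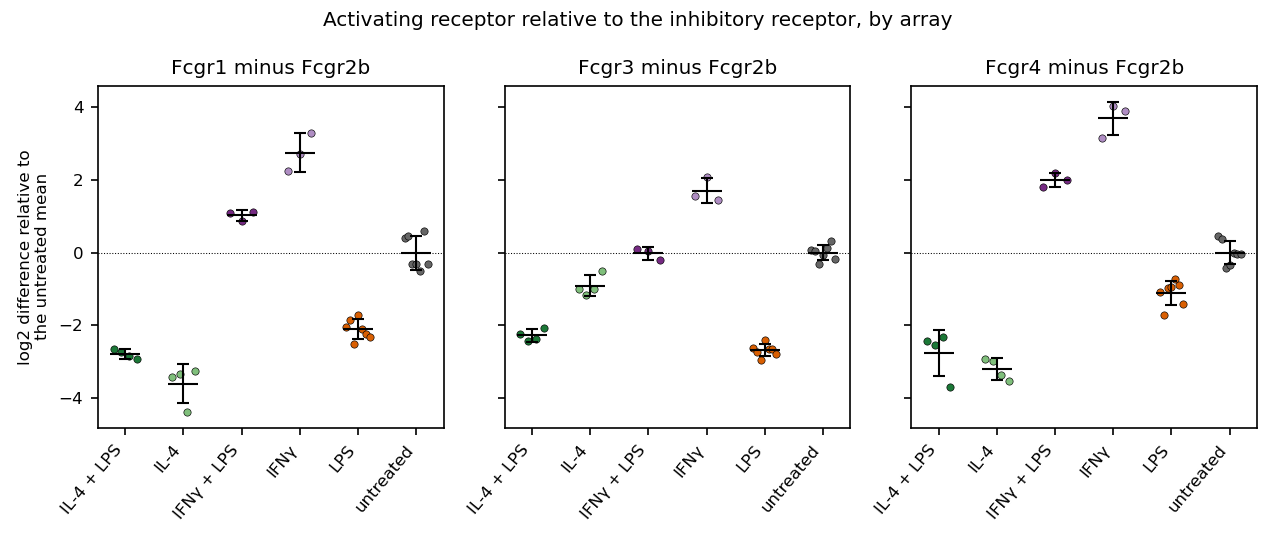
Log2 difference between an activating receptor and Fcgr2b on each array, relative to the untreated mean (vertical axis), by group (horizontal axis), with group means and SD. IL-4 and IL-4 plus LPS arrays lie below 0 in all 3 panels and IFNγ arrays above 0. Fcgr3 is shown by its brighter probe only.

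Fcgr3 had 2 probes with the same RefSeq accession, and they did not tell the same story. Over the 28 arrays they correlated at r = 0.737, against 0.949 to 0.990 between the probes of Fcgr1, Fcgr2b and Fcer1g. The dimmer Fcgr3 probe read 2.43 to 2.52 on the IFNγ arrays and 3.06 to 3.73 on the untreated arrays, a fall of -0.80 ± 0.21 (adjusted p = 0.00472), where the brighter probe gave 0.26. With IFNγ plus LPS it read 2.71 to 3.30, against 4.95 to 5.86 with LPS, a fall of -2.38 ± 0.21 (adjusted p = 1.12e-08), where the brighter probe gave -0.25. Its rises with LPS (2.02 ± 0.16) and IL-4 (1.52 ± 0.19) were larger than those of the brighter probe, and both interactions were called for it (-1.36 after IL-4, adjusted p = 0.00489, and -1.58 after IFNγ, adjusted p = 0.00079). Its profile correlated with Fcgr2b at r = 0.955, and that of the brighter probe at r = 0.748. Probe sequences were not used here, so whether either probe also reads a transcript of a neighbouring receptor gene, or another Fcgr3 isoform, was not tested. Unless the dimmer probe or the mean over probes is named, every Fcgr3 value given here is that of the brighter probe.

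**Figure D4:**
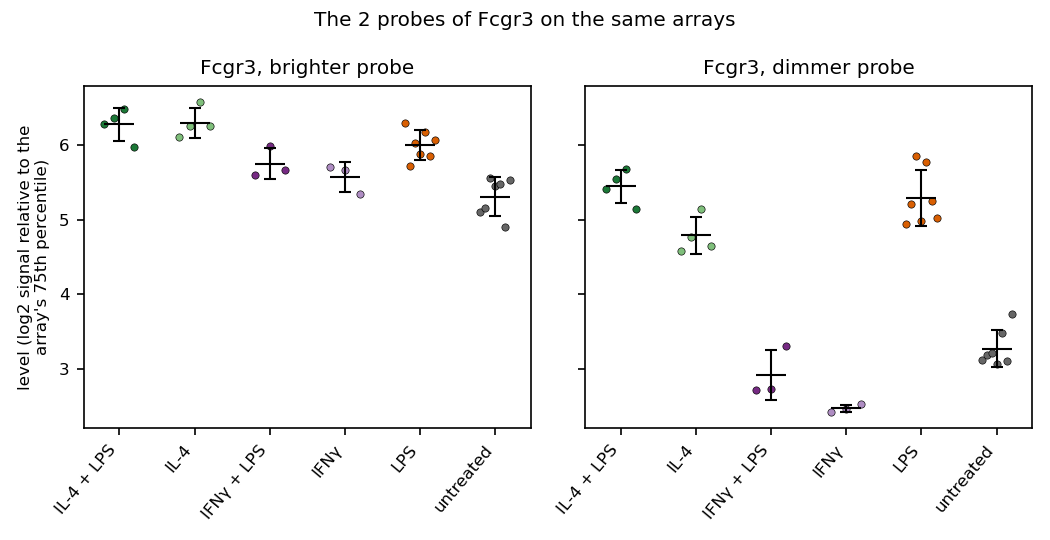
Level of the brighter (left) and the dimmer (right) Fcgr3 probe on the same 28 arrays (vertical axis, log2 signal relative to the array's 75th percentile) by group, with group means and SD. The IFNγ arrays lie at 5.35 to 5.71 on the brighter probe, around the untreated arrays, and at 2.43 to 2.52 on the dimmer probe, below all untreated arrays.

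With LPS, IL-4 and IFNγ against untreated, the other probes of Fcgr1, Fcgr2b and Fcer1g had the signs of the brighter ones. In the other comparisons the signs differed between probes for Fcgr1 in IFNγ plus LPS against LPS (0.22 and -0.21) and for Fcgr2b in IL-4 plus LPS against LPS (-0.14, 0.09 and 0.02), and no probe was called there. The dimmer Fcgr1 probe gave larger changes (2.14 ± 0.22 with LPS, -2.14 ± 0.26 with IL-4 and 1.77 ± 0.29 with IFNγ). Both dimmer Fcgr2b probes gave 3.18 and 3.39 with LPS, 2.02 and 2.22 with IL-4 and -1.59 and -1.58 with IFNγ, but the IFNγ interaction was not called on 1 of them (-1.32, adjusted p = 0.0649). The only spot of that probe was flagged as an outlier on 1 array, and its value was kept. The second Fcer1g probe gave 0.96 with LPS and 0.22 with IFNγ, and only the first of these was called (adjusted p = 0.42 with IFNγ). In IL-4 against IFNγ it gave -0.46 (adjusted p = 0.124), not called either. Fcgr4 had 1 probe.

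Ordered by group mean, Fcgr1 stood at 8.31 with IFNγ plus LPS, 8.13 with IFNγ and 8.09 with LPS, 3 groups that overlapped as neighbours, then at 7.27 with IL-4 plus LPS, 6.81 untreated and 5.12 with IL-4. Fcgr4 kept nearly the same order, with 5.96, 5.78 (LPS) and 5.75 (IFNγ) overlapping at the top and 2.21 with IL-4 at the bottom. Fcgr2b ran from 7.01 with LPS and 6.87 with IL-4 plus LPS, which overlapped, through 5.53 with IL-4, 4.09 with IFNγ plus LPS and 3.62 untreated, which overlapped as well, to 2.19 with IFNγ. The group means of Fcgr2b spanned 28.3-fold, those of Fcgr4 13.4-fold and those of Fcgr1 9.11-fold. Fcer1g, the partner of all 3 activating receptors, spanned 2.29-fold, from 7.29 with LPS to 6.09 with IL-4. On its brighter probe Fcgr3 spanned 1.99-fold, from 6.31 with IL-4 to 5.31 untreated, with each neighbouring pair of groups overlapping. On its dimmer probe the Fcgr3 means ran from 5.45 with IL-4 plus LPS to 2.47 with IFNγ, where all arrays lay below the untreated ones.

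Of all genes tested, those whose levels followed Fcgr1 most closely over the 28 arrays were Trim30b (r = 0.975), Ifi44 (0.973) and Ms4a6b (0.973). For Fcgr4 they were Crim1 (0.956), Aoah, which encodes an enzyme that deacylates LPS (0.944), and Ctsc, the lysosomal protease cathepsin C (0.942). Fcgr2b was followed by Arhgap26 (0.951), the transcription factor gene Tfec (0.948) and Cobll1 (0.940). The nearest profiles to Fcer1g were Pcsk7 (0.961), Ap3m2 (0.955) and Zfp513 (0.954), and Fcgr3 had no neighbour above 0.90 (the unnamed probe A_52_P980948 at 0.897, Dcaf12l2 at 0.869 and Olfr187 at 0.854). These correlations describe 28 arrays that share 6 treatments.

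The kinases and adaptors that act below the activating receptors were described by counts, beside the share of all genes called. Of 19 measured genes of this kind, 10 rose and 2 fell with LPS, where 42.2% of all genes were called (20.8% higher, 21.5% lower). Their median change was 0.37, against 0.06 over all genes. The largest were Lcp2, an adaptor of the Syk pathway (2.92 ± 0.14, adjusted p = 1.97e-14), the Src family kinase Lyn (1.85 ± 0.16, adjusted p = 4.77e-10), and Syk itself (2.09 ± 0.18, adjusted p = 6.13e-10), while Plcg2 gave -0.12 (adjusted p = 0.656). With IL-4, 1 rose and 5 fell, where 11.2% of all genes were called (median -0.15, against 0.01 over all genes), and those that fell included Pik3cb (-0.84 ± 0.25), Vav1 (-0.80 ± 0.18) and Lcp2 (-0.78 ± 0.17). With IFNγ, 6 rose and none fell, a share near the 25.6% of all genes called, of which 12.6% as higher and 13% as lower (median 0.38, against -0.29 over all genes). They were led by Pik3cb, a catalytic subunit of phosphoinositide 3-kinase (1.61 ± 0.27), Lcp2 (1.41 ± 0.19) and Lyn (1.19 ± 0.21). In IL-4 primed cells LPS raised 10 of the 19 and lowered 1, with Lcp2 at 3.42 ± 0.19, where 31.1% of all genes were called. In IFNγ primed cells it raised 4, with Syk at 1.77 ± 0.28, where 11.8% of all genes were called (5.62% higher). The interaction after IFNγ was called lower for 3 of the 19, Lcp2 at -1.40 ± 0.26 among them, and higher for 1, where 8.26% of all genes were called (5.23% lower).

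On the inhibitory side, 3 of 11 measured genes rose and 2 fell with LPS, a share near the 42.2% of all genes called. Inpp5d, whose phosphatase SHIP-1 works below Fcgr2b, fell by 2.95 (SE 0.23, adjusted p = 1.04e-10), while Fcgr2b itself rose. The adaptor gene Dok2 fell by 1.46, and Pirb and the phosphatase gene Ptpn6 rose by 1.01 and 0.72. With IL-4, Dok2 rose by 1.99 ± 0.28 (adjusted p = 1.18e-05), Dok3 fell by 1.76 and Ptpn6 fell by 0.76, and no other gene of the list was called, where 11.2% of all genes were. With IFNγ, 4 of 11 rose and none fell, where 25.6% of all genes were called: Dok1 (1.04 ± 0.20), Csk (0.94 ± 0.26), Pirb (0.71 ± 0.23) and Ptpn6 (0.60 ± 0.19). Inpp5d gave 0.17 there (adjusted p = 0.703), fell by 2.91 with LPS after IL-4 and by 1.60 after IFNγ, and was higher with IFNγ plus LPS than with LPS (1.52 ± 0.30, adjusted p = 0.00057).

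**Figure D5:**
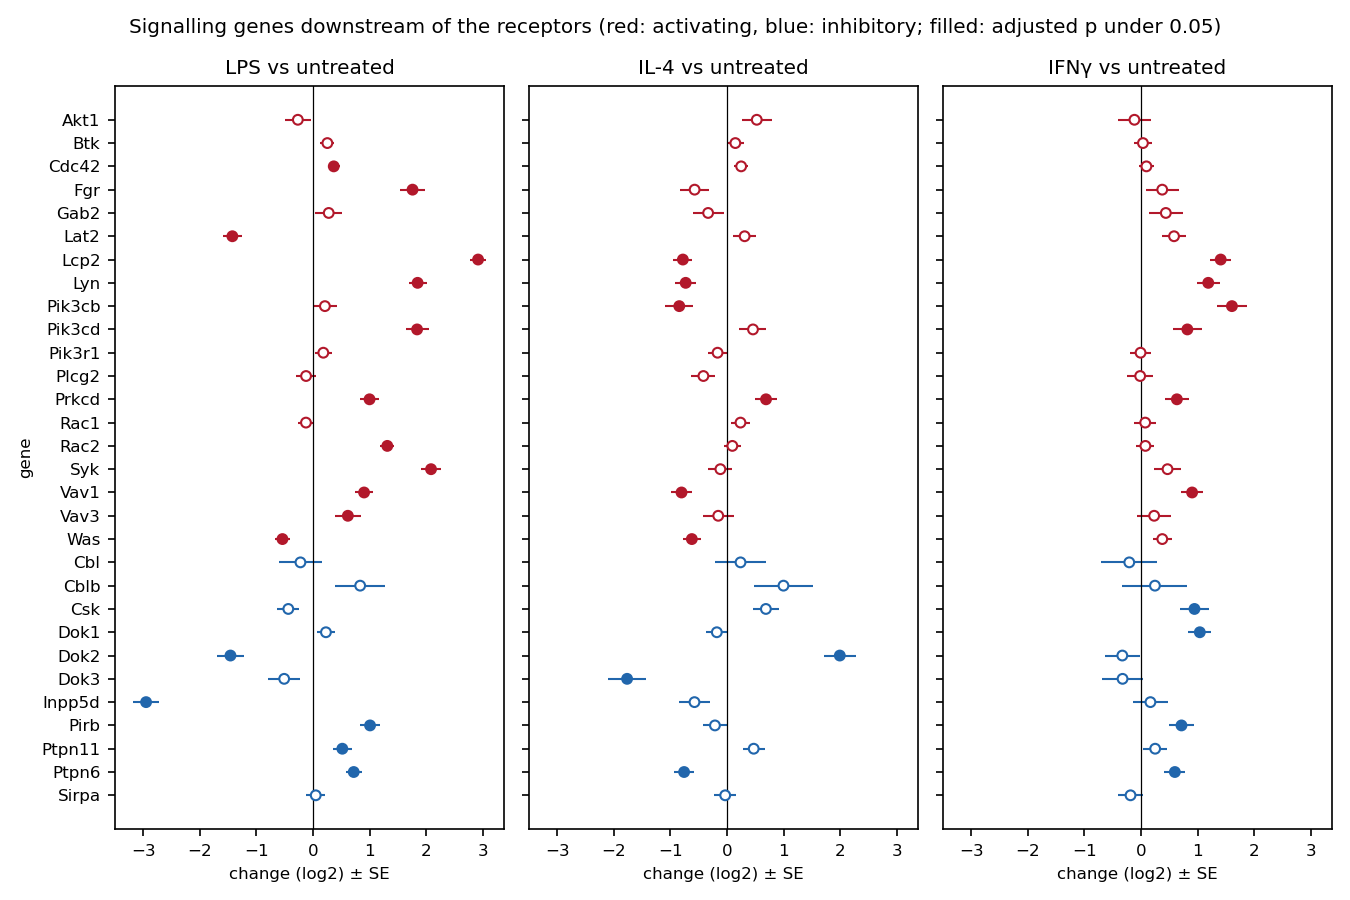
Change (horizontal axis, log2, with SE) of 19 genes of activating and 11 genes of inhibitory signalling (vertical axis) with LPS, IL-4 and IFNγ, each against untreated; filled points passed an adjusted p under 0.05. Inpp5d fell by 2.95 with LPS, and Lcp2 rose with LPS and IFNγ and fell with IL-4.

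Among receptors that use the γ chain or a related adaptor, Clec4e, which encodes the pattern receptor Mincle, moved furthest: it rose by 4.14 ± 0.22 with LPS and 2.82 ± 0.28 with IFNγ and fell by 3.28 with IL-4. Clec4d rose with LPS (1.10 ± 0.16) and fell by 2.01 with IL-4. Of the 7 measured genes of this list, 2 rose with LPS, 3 fell with IL-4, and 1 rose and 1 fell (Trem2, by 0.77) with IFNγ. Of all genes 42.2% were called with LPS, 11.2% with IL-4 and 25.6% with IFNγ, so the LPS count of the list lies below that share and the IFNγ count near it. Tyrobp, the adaptor DAP12, was called in none of the 11 comparisons, with changes of 0.06 with LPS after IL-4 (adjusted p = 0.855) and 0.16 with IFNγ (adjusted p = 0.465). Of 8 other Fc receptor genes tested, 2 were called with LPS, 2 with IL-4 and 2 with IFNγ. Trim21, which encodes a cytosolic antibody receptor, rose by 3.05 ± 0.20 with LPS and 1.28 ± 0.26 with IFNγ and fell by 1.33 with IL-4, Fcrl1 fell by 0.88 with LPS and by 3.33 with IL-4, and Fcgrt, the neonatal Fc receptor that spares IgG from degradation, fell by 1.29 with IFNγ (adjusted p = 0.041).

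Of 8 transcription factor genes of the macrophage and interferon programmes, 5 rose and 3 fell with LPS, where 42.2% of all genes were called. Irf1 rose by 2.58 ± 0.17 with LPS and by 3.17 ± 0.23 with IFNγ (adjusted p = 1.13e-10). Irf4 rose by 3.62 ± 0.34 with IL-4 (adjusted p = 2.45e-08) and fell by 2.53 with LPS and by 2.67 with IFNγ. Cebpa fell by 4.27 with LPS and by 2.06 with IFNγ and rose with IL-4 (adjusted p = 0.00163), and Stat2 fell by 1.24 with IL-4. Stat6, a factor that IL-4 signalling activates, gave -0.05 with IFNγ (adjusted p = 0.819).

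Markers of other cells that carry or lack Fc receptors were looked at beside these results, as the log2 of the summed signal of each list. Mast cell and basophil markers summed to between 4.52 and 5.56 with IL-4 plus LPS, -1.48 and -0.19 with IL-4, 3.19 and 3.37 with IFNγ plus LPS, 1.31 and 1.67 with IFNγ, 4.56 and 5.78 with LPS, and -0.95 and -0.27 untreated. This sum followed Hdc, which encodes the enzyme that makes histamine and averaged 4.94 with LPS and -0.89 untreated. Of the 7 markers 2 were well above background on every LPS array and 3 on every untreated array, and Mcpt8, a basophil protease gene, on 4 of 28 arrays.

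Dendritic cell markers summed to between 0.66 and 1.73 with IL-4 plus LPS, -1.14 and -0.80 with IL-4, 2.21 and 3.75 with IFNγ plus LPS, 0.06 and 1.22 with IFNγ, 1.01 and 3.08 with LPS, and -1.41 and -0.65 untreated. Not all markers moved with this sum. Zbtb46 averaged 1.44 with LPS and -3.37 untreated and Ccr7 -0.99 and -3.37, while Flt3 averaged -4.22 and -4.05 and Xcr1 -1.94 and -2.33. Clec9a averaged -0.99 with IFNγ, -6.04 with LPS and -6.09 untreated. Siglech was well above background on 8 of 28 arrays. The T and NK cell sum lay between 0.61 and 2.32 with LPS and between -2.16 and -0.88 untreated. It followed Lck, at 0.80 with LPS and -4.30 untreated, while Gzma was well above background on 0 of 28 arrays. The B cell sum lay between 1.72 and 2.86 with IL-4 plus LPS, and between 0.44 and 1.47 with IL-4. It lay between -0.26 and -0.04 with IFNγ plus LPS, and between 0.46 and 0.78 with IFNγ. With LPS it lay between 0.42 and 1.34 and untreated between 1.14 and 2.13, which overlapped. Its brightest marker, Cd79b, averaged 2.21 with IL-4 plus LPS, -0.94 with IFNγ plus LPS and 1.47 untreated. The neutrophil sum lay between 0.95 and 2.74 over all groups, with LPS and untreated arrays overlapping. All 8 macrophage markers were well above background on every array of every group. The part of other cells in the changes of the Fc receptors was not tested.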

How the data were processed

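RNA of 28 macrophage cultures was hybridised to single-colour Agilent arrays and read with Feature Extraction 9.5.1, per the file headers and the submitters' processing notes. The authors deposited scanner files, whose processed signal is a detrended intensity without local background subtraction or scaling between arrays, per the file headers. The deposited value table holds log2 differences from the probe median of its untreated columns, as its values show, and was used only to compare its columns with the scanner files. Genome build and probe design were not given in the sources used here.

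Control spots were left out, and outlier spots too unless every spot of a probe was flagged on that array. The 75th percentile of each array was subtracted from the log2 signal, spots of a probe were averaged, and the brightest probe stood for a gene. Genes well above background on at least 3 arrays were tested with limma 3.58.1 in R 4.3.3, in 1 model of 6 group means with 11 contrasts, two-sided, with Benjamini-Hochberg adjustment over all 22448 genes and calls at an adjusted p under 0.05. The method was tested on simulated data. Alternatives were a letter, slide or scan-day block, normexp background correction with an offset of 50, quantile and median scaling, other filters, fewer groups, shared letters, the mean over probes and leaving out each array. Of the group pairs that share 3 or more letters, same-lettered arrays correlated above 0.1 in every pair between IL-4 plus LPS and IL-4 (r = 0.15 to 0.72) and between IFNγ plus LPS and IFNγ (r = 0.27 to 0.62). The IL-4 and IFNγ groups share 1 letter (r = 0.42 to 0.51). The pairing comes from the letters in the labels. All these pairs also shared a scan day, and those of the IFNγ groups and C and G of the IL-4 groups a slide. Shared letter and shared scan day cannot be told apart here. From each pathway list, up to 4 called genes with the largest change and the gene with the smallest were named per comparison, and for each of the 5 genes the 3 genes with the highest correlation. Some list genes and motifs are not reported here and stand in no count of the lists. The genes and lists were chosen with earlier results of these data known.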

Additional observations from a re-analysis of the deposited data

Results flagged for a closer look

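Fcgr4 on untreated array F, at 2.72, stood apart from the other untreated arrays, the nearest of which was 3.37. It was the single such case among the 20 sets of gene and group examined by Dixon's test, and chance alone gives about 1 in 20. Array F was also the lowest untreated array for Fcgr3, Fcgr2b and Fcer1g.

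On the brightest probes, the LPS change differed with priming for 3 genes by the test of the difference itself (limma, Benjamini-Hochberg adjustment). After IFNγ it was smaller for Fcgr4 (interaction -2.07, adjusted p = 0.0111), Fcgr2b (-1.48, adjusted p = 0.00746) and Fcgr1 (-1.09, adjusted p = 0.0324). After IL-4 it was smaller for Fcgr2b (-2.05, adjusted p = 0.000487). No explanation of these differences was tested.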

How the results depend on the processing

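Of the 34 changes of the 5 genes that were called, all kept their direction except under quantile normalization, where 32 did. They stayed called in 34 cases with slide or scan day as a block and with the filter at 14 arrays, 33 without the filter and with the mean over probes, 32 with the letter block, 31 with median scaling, 30 when only the groups compared were fitted, 29 with normexp and 24 with quantile normalization. Of the 25 that could be fitted on shared letters, 19 stayed called, and of 369 fits without 1 array, 356. The letter block and the shared-letter fits rest on letters that are in doubt, most of all where untreated or LPS arrays are compared. For those comparisons they cannot tell whether a call depends on pairing. Between primed groups they cannot tell letter from scan day. All genes called numbered 9474 in LPS against untreated, 2505 in IL-4 against untreated, 5754 in IFNγ against untreated, 6983 in IL-4 plus LPS against IL-4, 2655 in IFNγ plus LPS against IFNγ, 1987 in IL-4 plus LPS against LPS, 5084 in IFNγ plus LPS against LPS, 356 and 1854 in the IL-4 and IFNγ interactions, 6204 in IL-4 against IFNγ and 5705 in IL-4 plus LPS against IFNγ plus LPS. With the experiment letter as a replicate block, calls were lost for Fcer1g in IFNγ against untreated (0.51) and Fcgr3 in IL-4 plus LPS against IFNγ plus LPS (0.50). With slide as a block, calls were gained for Fcer1g in the IFNγ interaction (-0.48), Fcer1g in IFNγ plus LPS against IFNγ (0.49), Fcgr3 in the IL-4 interaction (-0.71) and Fcgr3 in IL-4 plus LPS against LPS (0.36). With slide as a block, genes called numbered 4104 in the IFNγ interaction, 6894 in IFNγ plus LPS against IFNγ, 1048 in the IL-4 interaction, 11483 in IL-4 plus LPS against IL-4 and 3794 in IL-4 plus LPS against LPS. With scan day as a block, calls were gained for Fcer1g in the IFNγ interaction (-0.54), Fcer1g in IFNγ plus LPS against IFNγ (0.49), Fcgr3 in the IFNγ interaction (-0.52), Fcgr3 in the IL-4 interaction (-0.72) and Fcgr3 in IL-4 plus LPS against LPS (0.34). With scan day as a block, genes called numbered 3621 in the IFNγ interaction, 5167 in IFNγ plus LPS against IFNγ, 892 in the IL-4 interaction, 3881 in IL-4 against untreated and 3171 in IL-4 plus LPS against LPS. With normexp background correction, calls were lost for Fcer1g in IFNγ against untreated (0.65), Fcgr1 in IL-4 plus LPS against IFNγ plus LPS (-0.78), Fcgr1 in IL-4 plus LPS against LPS (-0.79), Fcgr3 in IL-4 against IFNγ (0.58) and Fcgr3 in IL-4 plus LPS against IFNγ plus LPS (0.77). With normexp background correction, genes called numbered 734 in the IFNγ interaction, 2660 in IFNγ against untreated, 859 in IFNγ plus LPS against IFNγ, 2030 in IFNγ plus LPS against LPS, 38 in the IL-4 interaction, 3042 in IL-4 against IFNγ, 737 in IL-4 against untreated, 2455 in IL-4 plus LPS against IFNγ plus LPS, 3554 in IL-4 plus LPS against IL-4, 533 in IL-4 plus LPS against LPS and 5549 in LPS against untreated. With quantile normalization, calls were lost for Fcer1g in IL-4 against IFNγ (-0.37), Fcer1g in IL-4 plus LPS against IL-4 (0.33), Fcer1g in LPS against untreated (0.15), Fcgr1 in the IFNγ interaction (-0.64), Fcgr1 in LPS against untreated (0.33), Fcgr2b in the IFNγ interaction (-0.999), Fcgr2b in IL-4 plus LPS against IL-4 (0.69) and Fcgr3 in IL-4 plus LPS against IFNγ plus LPS (0.50). With quantile normalization, calls were gained for Fcgr1 in the IL-4 interaction (1.25) and Fcgr3 in IL-4 plus LPS against IL-4 (-0.71). With quantile normalization, the sign turned for Fcer1g in IFNγ against untreated (-0.092) and Fcgr3 in LPS against untreated (-0.15). With median scaling, calls were lost for Fcgr1 in the IFNγ interaction (-1.27), Fcgr3 in IL-4 against IFNγ (0.37) and Fcgr3 in IL-4 plus LPS against IFNγ plus LPS (0.15). With median scaling, calls were gained for Fcgr3 in IFNγ against untreated (0.71). With median scaling, genes called numbered 1044 in the IFNγ interaction, 1402 in IFNγ plus LPS against IFNγ, 183 in the IL-4 interaction, 1530 in IL-4 against untreated and 1089 in IL-4 plus LPS against LPS. Without the filter on dim probes, calls were lost for Fcgr3 in IL-4 plus LPS against IFNγ plus LPS (0.53). Fitting only the groups compared, calls were lost for Fcgr1 in IL-4 plus LPS against IFNγ plus LPS (-1.04), Fcgr3 in IL-4 against IFNγ (0.73), Fcgr3 in IL-4 plus LPS against IFNγ plus LPS (0.53) and Fcgr4 in IL-4 plus LPS against IFNγ plus LPS (-1.96). Fitting only the groups compared, genes called numbered 763 in IFNγ plus LPS against IFNγ, 2473 in IL-4 plus LPS against IFNγ plus LPS and 1148 in IL-4 plus LPS against LPS. Keeping only letters present in all groups compared, calls were lost for Fcer1g in IFNγ against untreated (0.56), Fcgr1 in the IFNγ interaction (-1.20), Fcgr1 in IL-4 plus LPS against LPS (-0.86), Fcgr2b in the IFNγ interaction (-1.62), Fcgr2b in IFNγ against untreated (-1.34) and Fcgr4 in IL-4 plus LPS against LPS (-1.71). Keeping only letters present in all groups compared, genes called numbered 624 in the IFNγ interaction, 2744 in IFNγ against untreated, 763 in IFNγ plus LPS against IFNγ, 1607 in IFNγ plus LPS against LPS, 108 in the IL-4 interaction, 1504 in IL-4 against untreated and 453 in IL-4 plus LPS against LPS. Averaging all probes of a gene, calls were lost for Fcer1g in IFNγ against untreated (0.38). Averaging all probes of a gene, calls were gained for Fcgr3 in the IFNγ interaction (-1.05), Fcgr3 in IFNγ plus LPS against LPS (-1.32) and Fcgr3 in the IL-4 interaction (-1.04). Leaving out each array in turn changed a call or moved a count for Fcer1g in IFNγ against untreated (0.49 to 0.57), Fcgr1 in the IFNγ interaction (-1.26 to -0.81), Fcgr1 in the IL-4 interaction (0.74 to 1.10), Fcgr1 in IL-4 plus LPS against LPS (-0.92 to -0.59), Fcgr3 in IL-4 plus LPS against IFNγ plus LPS (0.45 to 0.64), Fcgr4 in the IFNγ interaction (-2.26 to -1.84), Fcgr4 in IL-4 against untreated (-1.42 to -1.02), genes called in IFNγ plus LPS against IFNγ (1727 to 2831) and genes called in IFNγ plus LPS against LPS (3200 to 5135), given as lowest to highest value. Without IFNγ array G, 1740 genes were called in IFNγ plus LPS against IFNγ, without IFNγ plus LPS array E 1727, and without the same array 3200 in IFNγ plus LPS against LPS. The cause of these differences was not tested. The letter block changed no other call of the 5 genes. Deviations of same-lettered arrays correlated above 0.1 in every pair for IL-4 plus LPS with IL-4 and for IFNγ plus LPS with IFNγ, and in 1 of 7 pairs for LPS with untreated. The pairs of primed groups also shared a scan day. The authors' value table was not run as an alternative, because most of its column labels disagreed with those of the scanner files. Its 28 columns followed 28 different scanner files, with a lowest correlation of 0.9999. The number of arrays limits the precision, and 3 arrays stand behind each IFNγ group.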
